A study of Mus musculus with 22 samples.

Results

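Mouse cortical astrocytes answer ethanol (EtOH) with calcium signals of different shapes, and the comparison described here sets the cells with a sustained signal (S-type, a slow rise and a slow decay) against the cells with a mixed signal (M-type, in which sustained and transient features occur together at a higher amplitude). The members are the 6 cells labelled S-type and the 5 cells labelled M-type, which make 11 of the 22 single cells of the series. The other 11 cells, used below only for orientation, are 6 T-type cells, whose signal is transient, and 5 cells without a response (NR). All cells were prepared by the same protocol. They are C57BL/6 astrocytes from primary cultures made of the cortex of single pups at postnatal day 0 to 1, shaken for 6 h, treated with 10 µM araC for 12 h, both to remove other cell types such as microglia, and kept without serum for 24 h before imaging with the calcium dye Fluo-4. Each cell was imaged, exposed to EtOH for a short time, collected on its own, and its RNA was amplified in 2 rounds before sequencing. Calcium signals were scaled to the answer to 100 µM ATP, given when an experiment ended, and whether a cell was collected before or after ATP is not given in the sources used here. The labels name the response type of each cell but not its pup, culture dish, collection time or sequencing lane. The identifiers run from J150_3 to J156_16 in S-type and from J172_23 to J176_25, so anything that differed between these runs of identifiers cannot be told apart from the response type. The cells of a type were therefore treated as 1 sample of that type, no p-value is given, and each difference is described by the values of the single cells and by what remained when any 1 cell was left out.

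Astrocytes are electrically silent cells that signal through rises of calcium in the cytosol. Receptors coupled to Gq activate phospholipase C, the product inositol trisphosphate (IP3) opens IP3 receptors in the endoplasmic reticulum (ER), STIM and Orai proteins refill the emptied store from outside, and pumps and exchangers return calcium to the ER or out of the cell. The ER is also where secreted and membrane proteins fold, with the help of chaperones that need calcium, so that calcium handling and the unfolded protein response share a compartment and some of their proteins.

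A pair of control sequences recurs below and is shown here because the ER stress and mitosis lists, described below, hold them more often than other promoters do. The ER stress response element, CCAAT and CCACG with 9 free bases between them, is bound by NF-Y together with ATF6, and the cell cycle homology region, TTTGAA, lies near the start of many genes used in mitosis, often beside CCAAT boxes. Promoter windows (RefSeq, build GRCm38.p6, 250 bases before to 50 after the start listed first for each gene) were searched on both strands. The first pair below belongs to calreticulin, whose level separated S-type from M-type cells, and to the ER chaperone BiP (Hspa5), and the capitals mark the ER stress response element. The second pair belongs to DNA topoisomerase 2-alpha and cyclin B2, and the capitals mark TTTGAA and CCAAT, or their reverse complements TTCAAA and ATTGG.
Calr (chr8:84846882-84847181, - strand): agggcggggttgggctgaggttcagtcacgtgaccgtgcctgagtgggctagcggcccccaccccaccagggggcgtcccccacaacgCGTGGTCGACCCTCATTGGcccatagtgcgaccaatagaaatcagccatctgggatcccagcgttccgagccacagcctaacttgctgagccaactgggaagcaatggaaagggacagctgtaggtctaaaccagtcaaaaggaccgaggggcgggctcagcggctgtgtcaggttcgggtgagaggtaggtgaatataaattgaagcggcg
Hspa5 (chr2:34771840-34772139, + strand): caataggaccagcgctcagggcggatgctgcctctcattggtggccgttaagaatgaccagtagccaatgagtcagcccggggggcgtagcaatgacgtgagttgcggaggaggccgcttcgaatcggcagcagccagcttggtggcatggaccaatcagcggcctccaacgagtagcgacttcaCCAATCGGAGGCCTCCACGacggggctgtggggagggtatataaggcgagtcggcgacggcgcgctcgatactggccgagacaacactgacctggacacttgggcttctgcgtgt
Top2a (chr11:99024140-99024439, - strand): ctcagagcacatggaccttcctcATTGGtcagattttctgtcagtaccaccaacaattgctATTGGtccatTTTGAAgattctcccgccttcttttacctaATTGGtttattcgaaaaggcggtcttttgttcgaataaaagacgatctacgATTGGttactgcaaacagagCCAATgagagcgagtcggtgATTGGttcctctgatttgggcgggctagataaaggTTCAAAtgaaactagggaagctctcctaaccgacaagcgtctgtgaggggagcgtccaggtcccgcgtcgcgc
Ccnb2 (chr9:70421505-70421804, - strand): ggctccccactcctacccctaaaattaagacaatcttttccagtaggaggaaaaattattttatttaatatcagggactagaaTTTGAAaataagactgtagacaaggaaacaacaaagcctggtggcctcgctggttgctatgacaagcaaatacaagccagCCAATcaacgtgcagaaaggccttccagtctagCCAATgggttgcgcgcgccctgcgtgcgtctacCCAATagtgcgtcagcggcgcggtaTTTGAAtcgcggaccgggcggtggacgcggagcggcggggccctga

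The reads per cell ranged from 12229280 to 16254761 in S-type cells and from 19030121 to 22131076 in M-type cells, so that every M-type library was deeper than every S-type library. The number of genes with a read did not follow depth. It was 9768 to 11914 in S-type and 9272 to 12188 in M-type cells, and 9621 to 11914 against 8878 to 11896 after all 11 cells had been thinned to 12229280 reads. Astrocyte markers were read in both types. Of 24 astrocyte markers with a ratio, 22 had reads in all 11 cells, among them the glutamate transporter Slc1a3 (4475 to 30383 normalized counts in S-type and 3734 to 22120.4 in M-type cells) and the intermediate filament gene Vim (33128 to 149932 and 96299 to 207085). Markers of other cell types were present in part. Of the 6 microglial markers with a ratio, the 5 genes C1qb, Tyrobp, Fcer1g, Laptm5 and Cd68 stayed at or below 14.3 normalized counts. The remaining microglial marker had a mean level of at least 50 and a log2 ratio of S-type to M-type of 0.80. Acta2 and Tagln, which mark contractile cells, were read in all 11 cells. Stmn2, which marks young neurons, reached 31627 normalized counts in the S-type cell J151_5. It gave most of the neuron marker reads of that cell. Shares of the summed marker lists overlapped between S-type and M-type for astrocyte (0.852% to 2.21% and 1.44% to 2.86% of reads), neuron (0.00586% to 0.212% and 0.0147% to 0.0543%), oligodendrocyte lineage (0.00804% to 0.0899% and 0.0145% to 0.223%), microglia (4.91e-05% to 0.0213% and 0.00011% to 0.00802%), endothelial (0.00498% to 0.0949% and 0.00238% to 0.047%) and mural or fibroblast genes (0.0567% to 0.966% and 0.00636% to 0.331%). Their part in the differences below was not tested. S-type J150_3, J151_5 and J154_8 held 513, 1365 and 4110 Xist reads, and M-type J175_18 held 23017, with at most 4 Y-linked reads. S-type J156_16 held 6891 Y-linked reads, and M-type J172_23, J173_25 and J176_25 held 6745, 6693 and 1908, with at most 17 Xist reads. S-type J155_9 held few of either. Med14, Las1l and Pdk3, described below, lie on chromosome X. The part of sex in the differences was not tested. Xist and Y-linked reads occurred together in the S-type cell J153_6 and the M-type cell J174_13. Without them the number of genes whose cells did not overlap, described below, was 104 towards S-type and 70 towards M-type in place of 33 and 24, and both counts also grew when any single cell was left out.

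For each gene, raw counts were divided by the size factor of the cell (a normalized count) and averaged over the cells of a type to give its level, and differences are given as the log2 ratio of the S-type to the M-type level. Genes differed in both directions, more often towards S-type. The median absolute log2 ratio was 0.88. The median signed log2 ratio of 12583 genes was 0.21 (quartiles -0.60 and 1.17), and 57.2% of the genes were higher in S-type. Levels more than 4-fold apart were found for 1750 genes higher in S-type (13.9%) and 920 genes higher in M-type (7.31%). Most of these rested on 1 cell, since a single cell held over 50% of the summed level of the higher type for 1403 of the 1750 and 804 of the 920 genes. With any 1 cell left out, 676 genes (5.37%) remained past 4-fold towards S-type and 238 (1.89%) towards M-type. A stricter view was to ask that every cell of one type lay above every cell of the other. Of 11291 genes with a mean level of at least 10, this held for 33 genes higher in all S-type cells (0.292%) and 24 genes higher in all M-type cells (0.213%). These genes are called separated below. Any division of 11 cells into 6 and 5 would separate some genes, and how many was not tested. Separation alone therefore does not tie a gene to the response type. The balance between the directions depended on the scaling, with 18 towards S-type and 32 towards M-type under TMM, 25 and 31 under CPM, 26 and 26 with size factors from the 11 cells alone, and 22 and 23 in thinned cells.

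**Figure D1:**
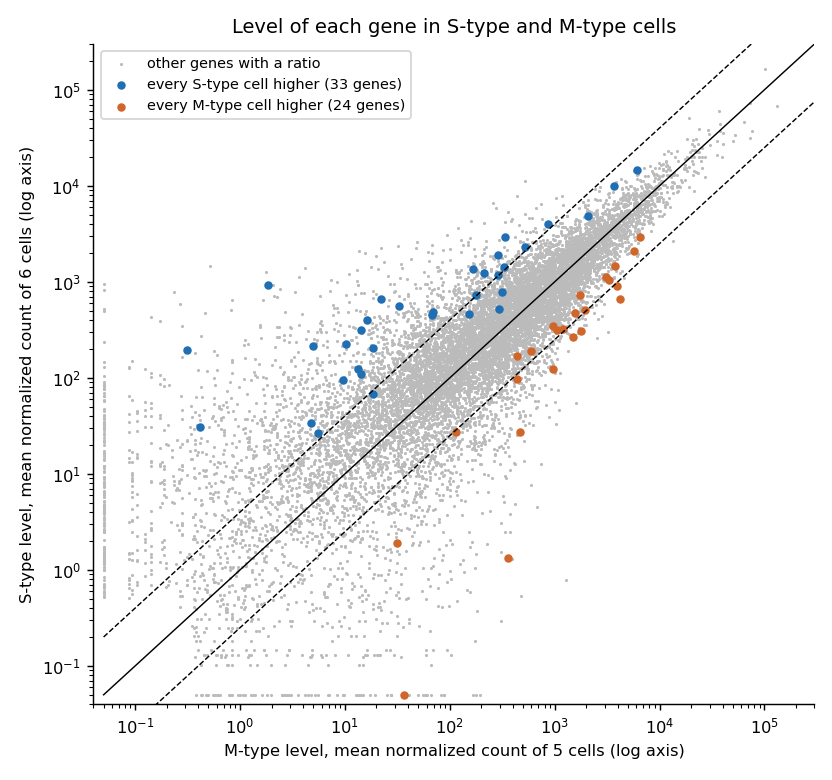
Each point is a gene with a ratio, placed by its mean normalized count in the 5 M-type cells (x, log axis) and in the 6 S-type cells (y, log axis); levels under 0.05, including 0, are drawn at 0.05. The solid line marks equal levels and the dashed lines a 4-fold difference. The 33 genes (blue) and 24 genes (orange) whose cells did not overlap lie both inside and outside the 4-fold lines, with levels in the higher type of 26.9 to 14579 and 31.6 to 6566 normalized counts.

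The separated genes differed in how wide the separation was. Among the 33 genes higher in S-type, the log2 ratio ranged from 0.84 to 9.28 with a median of 2.81, and 26 were past 4-fold, 18 of them with any cell left out. Among the 24 genes higher in M-type the ratio ranged from 1.15 to 8.06 with a median of 1.92, and 11 were past 4-fold, 7 of them with any cell left out. The gap between the lowest cell of the higher type and the highest cell of the lower type was under 1.1-fold for 14 and 4 of these genes. Under 5 scalings (the one used here, size factors from the 11 cells alone, TMM, CPM, and thinned cells) 16 of the 33 and 20 of the 24 stayed separated in every one. Those 16 were Arl6ip1, Atp10a, Cep250, Coq6, Ddit3, Eif2ak2, Fto, Gnptg, Itprip, Mrpl45, Neu3, Phospho2, Siah1a, Smarcc1, Stom and Tmem194b. The 20 were Atf6, Bccip, Commd3, Ei24, Isca1, Las1l, Lrrc42, Luc7l3, Med14, Med7, Mpc1, Ndufa4, Pdk3, Smim15, Socs6, Sumo2, Trp53inp1, Tug1, Zfp677 and Zfp931. The highest S-type value came from J151_5 in 19 of the 33 genes, and the highest M-type value from J172_23 in 12 and from J173_25 in 9 of the 24 genes. The strand setting of the counting was not given in the sources used here, so reads of Coq6, Gnptg, Smarcc1, Cep250, Tug1 and Smim15 cannot be told from those of Fam161b, Unkl, Dhx30, 6430550D23Rik, Morc2a and Ndufaf2, which overlap them on the opposite strand, and Itprip overlaps Cfap43 on its own strand. Sumo2 and the zinc finger genes Zfp677 and Zfp931 have close relatives that may share reads.

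**Figure D2:**
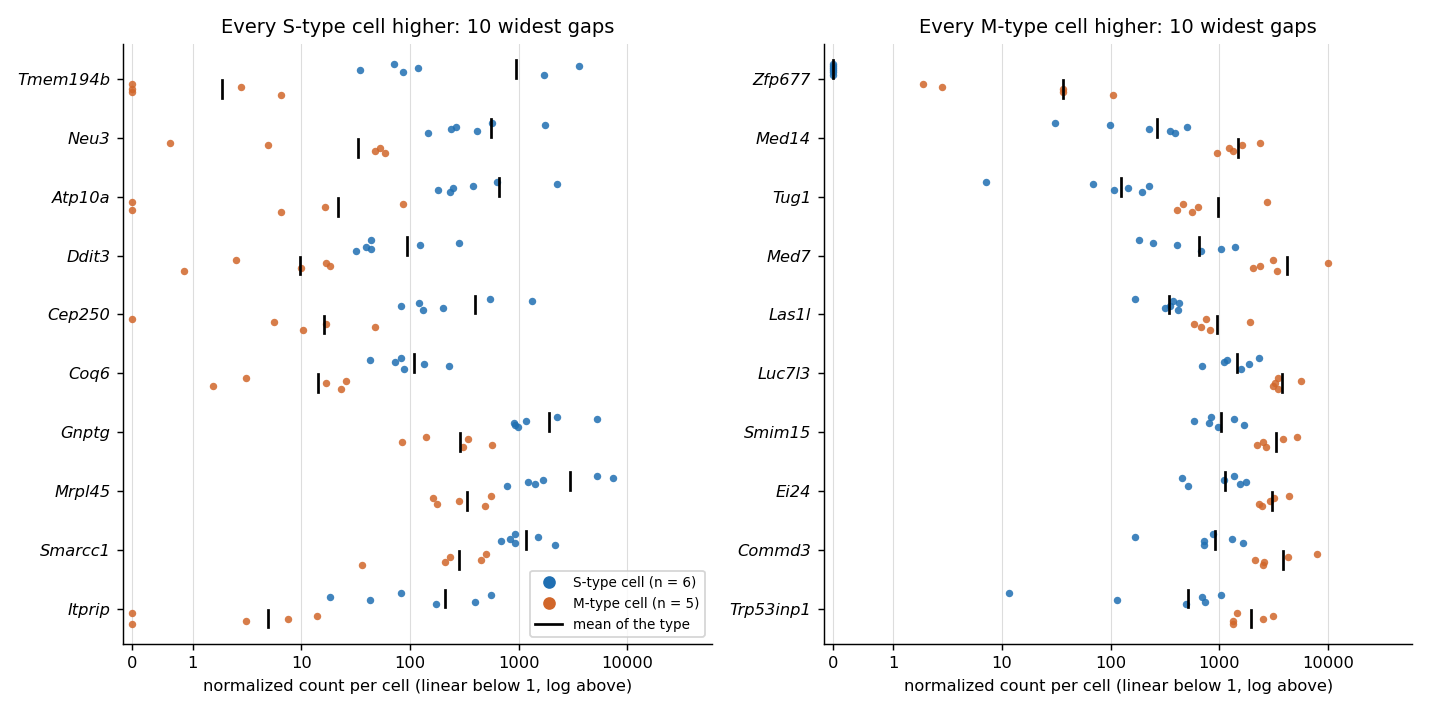
Normalized counts of single cells (x, linear below 1 and log above) for the 10 genes with the widest gap in each direction; blue points are the 6 S-type cells, orange points the 5 M-type cells, and black bars the mean of each type. In each row the clouds do not overlap, and the blue means of the left panel often lie far to the right of most blue points because 1 or a few cells were much higher than the rest.

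Genes of protein folding in the ER and of its stress response were found on both sides. Calr, which encodes the calcium-binding ER chaperone calreticulin (chromosome 8, 84841850 to 84846934), had 1958 normalized counts in its lowest S-type cell, a median of 3147 and 8154 in its highest. The 5 M-type cells held 395, 573, 599, 950.5 and 1829. All S-type cells were thus above all M-type cells, although the lowest S-type and the highest M-type cell were close, and with scaling by library size alone (CPM), 1 of 5 scalings tried, they were no longer separated. The log2 ratio was 2.19 (1.86 to 2.66 with 1 cell left out). Ddit3, which encodes the stress transcription factor CHOP, was low in every cell but separated more widely, with 31.9, 43.7 and 284 normalized counts as lowest, median and highest S-type value against 0.864, 2.5, 9.86, 16.8 and 18.3 in M-type cells. Its log2 ratio was 3.29 (2.55 to 3.66), and reads of the gene cannot be told from those of Mars on the opposite strand where the genes overlap. Eif2ak2, which is not a member of the heat shock and ER stress list described next, was also separated. It encodes the kinase PKR, which is activated by double-stranded RNA and slows translation through eIF2-alpha. Eif2ak2 ranged from 655 to 1633 in S-type (median 1308) and from 34.6 to 549 in M-type cells (median 212), a log2 ratio of 2.52 (2.25 to 3.24). Among the ER stress genes, the opposite direction was seen for Atf6, an ER membrane protein that is released as a transcription factor when unfolded proteins accumulate. It had 2.66, 399 and 596 normalized counts as lowest, median and highest S-type value and 763, 865, 934, 1249 and 2233 in M-type cells, and its log2 ratio was -1.91 (-2.18 to -1.57).

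Of the 48 members of the whole list of heat shock and ER stress genes 32 were higher in S-type and 16 in M-type. Its median log2 ratio was 0.45 (0.22 to 0.56 with 1 cell left out) beside 0.21 for all genes. Past 4-fold towards S-type were 8 members (16.7%, against 13.9% of all genes) and towards M-type none of the 48 (against 7.31%). Besides Calr and Ddit3 these were Hyou1, Edem1, Ern1, Trib3, Chac1 and Hspa1a. Trib3 and Chac1, both known as genes switched on through ATF4 and CHOP, were highest in the S-type cell J155_9 (253 and 418 normalized counts) and at 0 in 3 and 1 of the S-type cells, while the inducible chaperone gene Hspa1a reached 1218 in J156_16 and was at 0 in J150_3 and J151_5. Hspa5, an abundant chaperone gene of the ER, overlapped broadly (2111 to 34928 in S-type, 3285 to 18017 in M-type cells, log2 ratio 0.65). The ER stress response element shown above was present in the promoters of 7 of the 39 list members with a window (17.9%, and 0.13% of 27025 promoters), namely Hspa5, Hsp90b1, Dnajc3, Calr, Canx, Pdia6 and Creld2. All 7 had a higher level in S-type, as had 57.2% of all genes, by log2 ratios of 0.34 to 2.19. Their median of 0.47 was close to the 0.45 of the whole list, and of the 7 only Calr was separated. The element was not found in the window of Ddit3, which says only that these letters are absent there.

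One separated gene belonged to the calcium lists. Itprip encodes a protein that binds the IP3 receptor and lies on chromosome 19, 47894602 to 47919299. It was read in all 6 S-type cells with 18.3, 127 and 561 normalized counts as lowest, median and highest value. In M-type cells it was at 0 in J172_23 and J176_25 and at 3.11, 7.5 and 14 in the rest. The log2 ratio was 5.43 (4.85 to 6.32), with a counting interval of 4.99 to 5.91 (exact binomial, 95%), which covers counting error only. NR cells had a level of 41.4 (median 18.8), and T-type cells a median of 0 with a highest cell of 316.

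Gnptg, a subunit of the enzyme that marks lysosomal hydrolases with mannose 6-phosphate, had 906, 1077 and 5263 normalized counts as lowest, median and highest S-type value, and 83.9, 141, 311, 345 and 568 in M-type cells (log2 ratio 2.73, 2.11 to 3.13). Neu3, the sialidase that trims gangliosides at the plasma membrane, had 148, 339 and 1732 against 0.626, 4.9, 47.7, 53.0 and 59.2 (4.09, 3.31 to 4.40). For both genes J151_5 was the highest and J150_3 the next of the S-type cells. The phospholipid flippase gene Atp10a was at 0 in 2 M-type cells and reached 86.8 in J173_25, while no S-type cell had less than 180.4 (log2 ratio 4.90, 3.93 to 6.84). Tmem194b, a nuclear envelope gene now named Nemp2, had 35.0, 103 and 3599 in S-type cells and 0, 0, 0, 2.8 and 6.48 in M-type cells. Its log2 ratio of 8.98 depended on J151_5 and J156_16, which held 3599 and 1714, and was 7.77 without J151_5. The abundant gene Arl6ip1, whose product shapes ER tubules, had smaller but complete separation, with 5549.5 to 16419.6 in S-type against 2768 to 4989.7 in M-type cells (1.41, 1.21 to 1.54).

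Mrpl45, a protein of the large mitochondrial ribosomal subunit, had 781, 1542 and 7368 normalized counts in S-type and 164.5, 177, 284, 486 and 556 in M-type cells, and its log2 ratio was 3.15 (2.63 to 3.41). The list of 75 mitochondrial ribosomal proteins did not share this, with a median log2 ratio of -0.0011, 37 members higher in S-type and 38 in M-type. Coq6, an enzyme of ubiquinone synthesis, had 43.4, 85.9 and 229 against 1.56, 3.13, 16.9, 23.3 and 25.9 (2.94, 2.58 to 3.27). Fto, which removes methyl groups from N6-methyladenosine in RNA, had 1123, 2373 and 3114 against 305, 347, 423, 599 and 916 (2.14, 2.00 to 2.45). In this gene no single S-type cell stood out, and the S-type level was held by 3 cells at 2949.8 to 3114 and 3 cells between 1123 and 1797. The chromatin remodelling subunit gene Smarcc1 had 683, 922 and 2145 against 35.9, 210.1, 235, 451 and 496 (2.04, 1.75 to 2.33). Cep250, which links the centrioles, had 82.3, 167 and 1323 against 0, 5.6, 10.4, 16.9 and 47.7 (4.64, 3.75 to 5.61). Siah1a and Tpm3 were separated as well, but each has close copies in the genome among which reads may be divided, and Tpm3 was separated under only 2 of the 5 scalings.

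Among the genes higher in M-type, 2 of the 4 widest gaps belonged to subunits of Mediator, the complex that links transcription factors to RNA polymerase II. Med14 (chromosome X, 12675369 to 12762073) had 31.1, 289 and 510.4 normalized counts as lowest, median and highest S-type value and 963, 1229, 1349, 1613 and 2353 in M-type cells, with a log2 ratio of -2.48 (-2.77 to -2.25). Med7 had 184, 543 and 1384 in S-type and 2051, 2392, 3099, 3416 and 10113 in M-type cells, with a ratio of -2.68 (-3.04 to -2.06). In both genes each M-type cell exceeded each S-type cell. The long noncoding RNA Tug1 had 7.1, 126 and 227 in S-type and 407, 464, 566, 643 and 2775 in M-type cells (-2.97, -3.22 to -2.06). Luc7l3, a splicing factor, had 690.3, 1374 and 2313 against 3136, 3257, 3441, 3501 and 5626 (-1.38, -1.56 to -1.20), with 4 of the 5 M-type cells between 3136 and 3501. Las1l, which processes ribosomal RNA precursors, had 169, 362 and 425 against 581, 683, 754, 827 and 1929.8 (-1.48, -1.61 to -1.05).

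Some of the genes higher in every M-type cell encode mitochondrial proteins. Ndufa4, a subunit of the respiratory chain, had 989, 1910.1 and 3423 normalized counts in S-type and 4212, 4237, 4535, 7662 and 7805 in M-type cells (log2 ratio -1.46, -1.66 to -1.32). Mpc1, a subunit of the mitochondrial pyruvate carrier, ranged from 49.9 to 316 in S-type and from 331 to 932 in M-type cells (-1.66), Isca1, which assembles iron-sulfur clusters, from 65.3 to 524 and from 552 to 1518 (-1.76), and Pdk3, which inhibits pyruvate dehydrogenase, from 25.9 to 127 and from 155.7 to 774 (-2.18). The full list of 79 oxidative phosphorylation genes had a median log2 ratio of -0.07 with 35 members higher in S-type and 44 in M-type. None of them was past 4-fold, where 13.9% of all genes were towards S-type and 7.31% towards M-type. Ndufa4 was the 1 separated member of this list. Larger ratios rested on low S-type counts in Zfp931 (0 to 3.05 against 3.89 to 1600.3, -8.06) and in Atpaf1, an assembly factor of the mitochondrial ATP synthase (0 to 6.09 against 6.88 to 46.2, -4.06). Lrrc42 (102 to 571 against 681 to 5472) had a ratio of -2.53 that was -1.48 with 1 cell left out. Other separated genes were Commd3 (168 to 1644 against 2155 to 7859, -2.10), the p53 target Trp53inp1 (11.5 to 1035 against 1332 to 3123, -1.93), the ER membrane gene Ei24 (453 to 1759 against 2312 to 4378, -1.44) and Smim15 (586 to 1675 against 2238 to 5208, -1.66). Socs6, an inhibitor of cytokine signalling, had 6.13 to 68.2 in S-type and 73.1, 159, 594, 682 and 822 in M-type cells (-4.09). The zinc finger gene Zfp677 had no read in any S-type cell and 1.88, 2.8, 36.6, 36.8 and 106 normalized counts in M-type cells, at least 91.4-fold higher when the S-type level is set to 3 reads over the 6 cells.

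The levels of the other types were not nearer to the same type throughout. For the 33 genes higher in S-type, the NR level was nearer to the S-type level in 17 and nearer to the M-type level in 16, and the T-type level was nearer to S-type in 24. For the 24 genes higher in M-type, the NR level was nearer to M-type in 19 and the T-type level in 16. Of the 33 genes, 9 had a T-type level nearer to M-type, among them Mrpl45. It had levels of 733 in NR and 864 in T-type cells, which are closer to the 334 of M-type than to the 2953 of S-type. Such levels could rest on 1 cell. Med14 had a level of 1047 in T-type cells with a highest cell of 4467 and a median of 184.6, and Tug1 a level of 1108 in NR cells with a highest cell of 5036 and a median of 215.

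The calcium machinery, through which the types were defined, was compared in 10 lists that together hold 200 genes with a ratio. Their median log2 ratio was 0.34, and 120 genes were higher in S-type and 80 in M-type. Past 4-fold were 30 towards S-type (15%, against 13.9% of all genes) and 20 towards M-type (10%, against 7.31%). These shares are near those of all genes in both directions. With any cell left out, 13 remained towards S-type (6.5%, against 5.37%) and 7 towards M-type (3.5%, against 1.89%), and 14 of these 20 had a mean level of at least 10. Of the 14, 8 were at 0 in at least 1 cell of the higher type, and Itprip was the 1 separated gene.

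**Figure D3:**
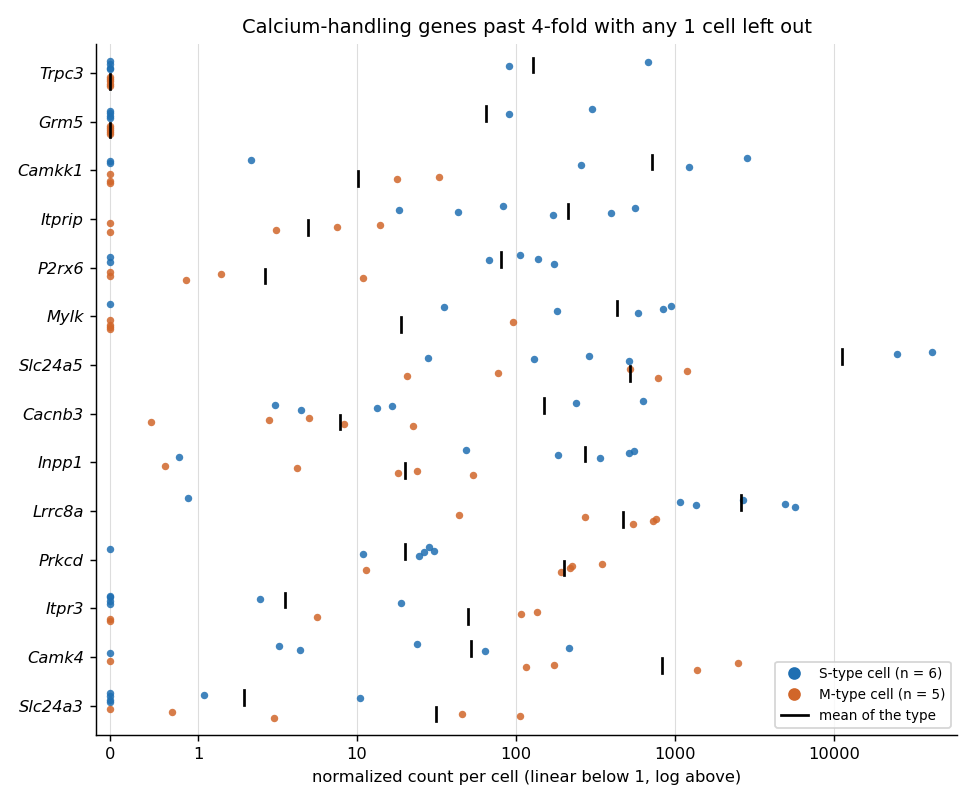
Normalized counts of single cells (x, linear below 1 and log above) for the 14 calcium-handling genes averaging 10 or more that stayed past 4-fold whichever cell was left out; blue points are the 6 S-type cells, orange points the 5 M-type cells, and black bars the mean of each type. Only in the Itprip row do the clouds not overlap, and in most rows some cells of the higher type are at 0 or among the cells of the lower type.

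At the receptor step, the endothelin receptor gene Ednrb was the most abundant member together with the thrombin receptor gene F2r. Ednrb had 2720.2, 9582 and 21138 normalized counts as lowest, median and highest S-type value and 1319, 1509.6, 2124, 2827 and 5859 in M-type cells. Its log2 ratio was 1.85 (1.47 to 2.34), and the types overlapped because the S-type cells J155_9 and J153_6 lay below the highest M-type cell. F2r overlapped fully (2171 to 17887 and 4224 to 9897, log2 ratio 0.56). The list of 21 Gq-coupled and related receptors had 17 members higher in S-type, where 57.2% of all genes were, and a median log2 ratio of 0.56 (0.49 to 0.93 with 1 cell left out), and 3 were past 4-fold (Grm5, Oxtr and Gpr30, 14.3%, near the 13.9% of all genes). Downstream, the G protein gene Gnaq did not separate the types (3388 to 16415 and 3322 to 12382, -0.16). Inpp1, which degrades inositol phosphates, had 0.784, 260.0 and 551 in S-type and 0.626, 4.2, 18.2, 23.9 and 54.0 in M-type cells (3.75, 3.42 to 4.54), so that 4 of the 6 S-type cells were above all M-type cells.

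In the ER, the IP3 receptor genes differed little or were low. Itpr1 had 483 to 4824 normalized counts in S-type and 1029.8 to 2159.7 in M-type cells (log2 ratio 0.52), Itpr2 had 0 to 373 and 15.4 to 369 (-0.16), and Itpr3 was above 20 only in the M-type cells J172_23 and J173_25 (136 and 108). The calcium pump gene of the ER, Atp2a2, had 1821 to 9772 and 2207 to 6780.0 (0.69). Of the store sensors, Stim1 had 160.8, 495 and 1158 in S-type cells and 11.7, 50.8, 53.9, 55.7 and 499 in M-type cells, a log2 ratio of 2.02 that was 3.66 without J173_25, the 1 M-type cell within the S-type range. Stim2 was not different (-0.15, -0.50 to 0.42). Calcium export showed a like pattern for the plasma membrane pump gene Atp2b1, with 2522, 4269.9 and 12103 in S-type and 1517, 1922, 1984, 2186 and 2579 in M-type cells (1.41, 1.00 to 1.55). Only the lowest S-type and the highest M-type cell crossed. The exchanger gene Slc24a5 had the highest normalized count level of the export list in S-type cells because J150_3 and J151_5 held 41792 and 24954, whereas the other 4 S-type cells (28.0 to 516) lay among the M-type cells (20.8 to 1195). This gene overlaps Myef2 on the opposite strand. Mitochondrial calcium handling had no member past 4-fold among 18 genes, and its median log2 ratio was 0.29. Of all genes, 13.9% were past 4-fold towards S-type and 7.31% towards M-type.

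Among calcium sensors and kinases the differences went both ways. The calmodulin gene Calm2 was abundant and overlapped, with a log2 ratio of 0.01 (-0.55 to 0.39). Camkk1, which activates the calmodulin-dependent kinases, had 2839.9 in J150_3, 1232 in J156_16 and 258 in J155_9 but at most 2.17 in the other S-type cells, and at most 32.9 in M-type cells (6.15, 4.88 to 7.34). Mylk, the myosin light chain kinase gene, was at 0 in 4 M-type cells and 1 S-type cell and between 35.3 and 949 in the other 5 S-type cells (4.50, 4.11 to 10.17). Higher in M-type were Prkcd, a protein kinase C gene with at most 30.5 in S-type cells and 193, 218, 226 and 349 in 4 M-type cells (-3.31, -3.62 to -3.01), and Camk4, whose M-type values were 0, 116, 174.9, 1387 and 2497 beside 0 to 217 in S-type cells (-4.01, -5.46 to -3.01). For Prkcd the 5th M-type cell, J175_18, had 11.4 and lay within the S-type range. Of the channels, Lrrc8a, a subunit of the volume-regulated anion channel, was above all M-type cells (43.8 to 761) in 5 of 6 S-type cells (1079 to 5712) and at 0.888 in J150_3 (2.48, 2.09 to 2.74). P2rx6, an ATP-gated channel subunit, was read in 4 S-type cells with 67.4 to 173.7 and stayed at or under 10.9 in M-type cells (4.94, 4.56 to 7.16). The gap junction gene Gja1 and the potassium channel gene Kcnj10, typical of astrocytes, overlapped fully (log2 ratios -0.57 and -0.31).

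The genes of cell division gave the largest list medians, and these came from 2 S-type cells. Of 69 mitosis genes 68 were higher in S-type, 54 were past 4-fold (78.3%, against 13.9% of all genes), and the median log2 ratio was 3.90. Of 58 S phase genes 50 were higher in S-type, 34 were past 4-fold (58.6%), and the median was 2.61. The share of reads from mitosis genes was 2.97% in J150_3 and 1.48% in J151_5. It was between 0.0882% and 0.326% in the other 4 S-type cells, which overlapped the M-type cells (0.111% to 0.329%). The share from S phase genes was 1.40% in J151_5, 0.613% in J150_3, 0.0746% to 0.328% in the other S-type cells and 0.0485% to 0.305% in M-type cells. They did not have the same profile. J150_3 was the highest of the 11 cells for 50 of the 69 mitosis genes and 9 of the 58 S phase genes, and J151_5 for 16 and 37. Without these 2 cells the median log2 ratio of the mitosis genes was -0.22 and that of the S phase genes 0.40. The T-type cells also held 1 such cell (J165_23, with 0.825% and 1.11%), and no NR cell exceeded 0.167% and 0.118%.

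**Figure D4:**
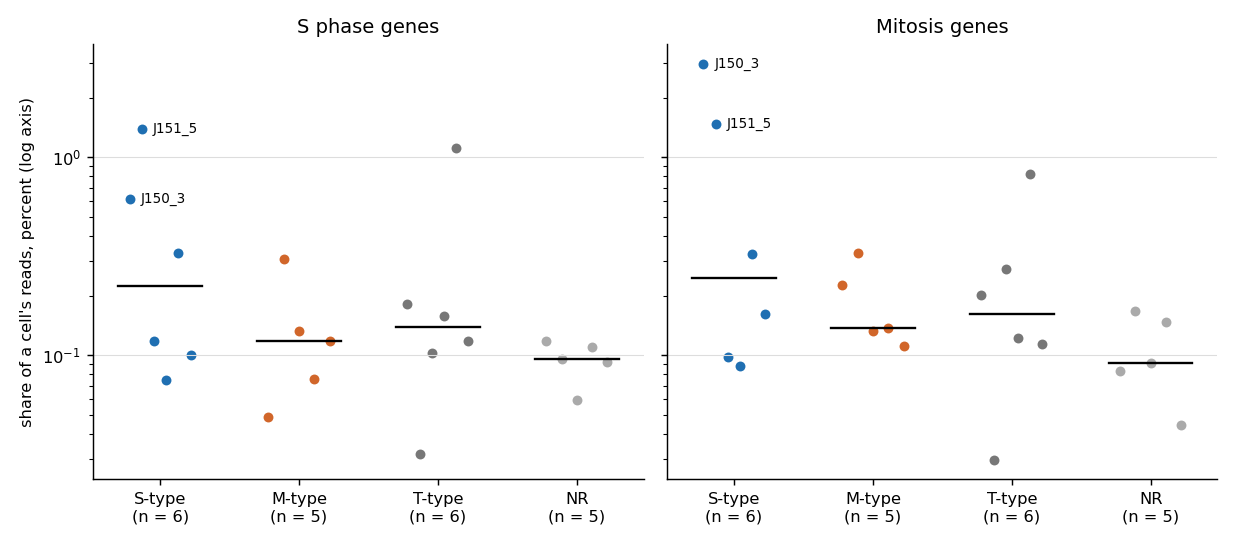
Share of the reads of each cell that came from the listed S phase (left) and mitosis genes (right), in percent on a log axis, for the 22 cells by response type; each point is a cell and the black bar the median of the type. J150_3 and J151_5 stand above the other 4 S-type cells, which overlap the M-type cells.

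Single genes show the same. Top2a had 57.8, 569.6 and 27257 normalized counts as lowest, median and highest S-type value and 0, 12.5, 70.0, 178 and 1949 in M-type cells, and its log2 ratio of 4.13 turned to -0.22 without J150_3 and J151_5. Rrm2, which makes deoxyribonucleotides, turned from 3.13 to -1.57. Cdk1 had 4.38, 637 and 11321 against 0, 3.75, 138, 201 and 251 (4.95), and Pcna, the sliding clamp of replication, 142, 3517 and 45117 against 1558, 1673, 2033, 3330.1 and 14692 (1.25). Pold2, a DNA polymerase subunit, was the 1 separated gene of these lists, with 28.0, 47.3 and 1619 against 0.626, 1.3, 15.5, 25.9 and 28.0. Its lowest S-type and highest M-type values were nearly equal, and it stayed separated under 2 of the 5 scalings. In the promoter windows, TTTGAA was present in 39 of the 57 mitosis genes with a window (68.4%), in 6 of 44 S phase genes (13.6%) and in 18.1% of 27025 promoters, and CCAAT in 43 (75.4%), 27 (61.4%) and 37.9%. Both occurred in 34 of the 57 mitosis genes (59.6%, against 7.12%), as in the windows of Top2a and Ccnb2 shown above. Of the separated genes, 1 of 30 with a window among those higher in S-type (Coq6, 3.33%) and 2 of 21 among those higher in M-type (Zfp677 and Zfp931, 9.52%) held both, beside 7.12% of all promoters.

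The medians of the other lists ranged from -0.82 for the 6 microglial markers to 1.24 for the 5 endothelial markers, beside 0.21 for all genes. Cytosolic ribosomal protein genes were lower in S-type in 62 of 81 cases, with a median log2 ratio of -0.30 that was 0.06 without J172_23, the M-type cell with the largest share of these reads (8.09%, against 2.71% to 4.77% in the other M-type cells and 2.58% to 5.21% in S-type cells). Immediate early genes, which respond to calcium within minutes, had a median of -0.49 (-0.81 to 0.05), with 2 of 38 past 4-fold towards S-type (5.26%, against 13.9% of all genes) and 7 towards M-type (18.4%, against 7.31%). Among the 7, Zfp36, which destabilises cytokine mRNAs, had 0 to 23.7 normalized counts in S-type and 1.04, 61.8, 83.9, 165.9 and 189 in M-type cells (-3.25, -3.66 to -2.89). Genes of EtOH and acetaldehyde metabolism had a median of -0.58 (-0.70 to -0.08), with 5 of 13 higher in S-type. Past 4-fold were 1 towards M-type (7.69%, against 7.31% of all genes) and none towards S-type (against 13.9%). The most abundant members of this list overlapped (Akr1a1 4363 to 19251 and 2909 to 9409, Aldh1a1 5.19 to 10113 and 353 to 3582). Chromatin modifier genes had 16 of 108 past 4-fold towards S-type (14.8%, near the 13.9% of all genes) and 2 towards M-type (1.85%, against 7.31%), and their median of 0.36 was 0.01 without J150_3 and J151_5. Genes of inflammation and the interferon response had 16 of 69 past 4-fold towards S-type (23.2%, against 13.9% of all genes) and 7 towards M-type (10.1%, against 7.31%). With any cell left out, 6 and 3 remained (5.37% and 1.89% of all genes did). The median of this list was 0.26 (0.13 to 0.63), close to that of all genes, with 39 members higher in S-type and 30 in M-type. Its 1 separated member, Socs6, was higher in M-type. The interferon-induced genes Usp18 and Oasl2 reached 369 and 315 in S-type cells and stayed at or under 11.7 and 9.8 in M-type cells, although both were at 0 in some S-type cells. Glutamate and GABA receptor and transporter genes had 19 of 26 members higher in S-type, where 57.2% of all genes were, and a median of 0.67 (0.37 to 0.96). Past 4-fold were 6 towards S-type (23.1%, against 13.9% of all genes) and 1 towards M-type (3.85%, against 7.31%). With any cell left out, 3 and 0 remained (5.37% and 1.89% of all genes did), and no member was separated. Astrocyte marker genes had a median of 0.41. The 1 marker past 4-fold (4.17% towards S-type, against 13.9% of all genes) was Acsl3, with 32.5 to 4394 against 1.25 to 708 (2.20).

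**Figure D5:**
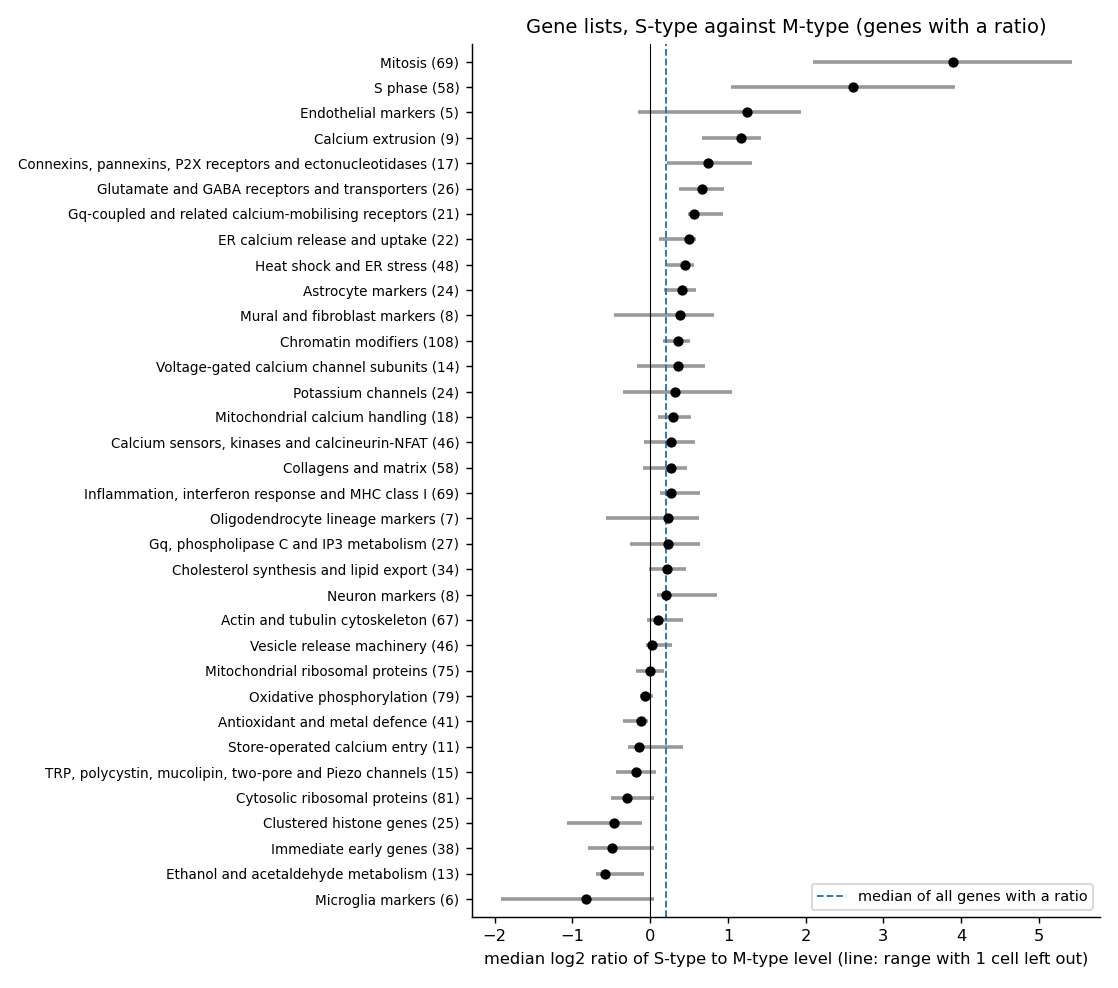
Median log2 ratio of S-type to M-type level (black points, x axis) for each gene list, with the number of genes with a ratio in parentheses; grey lines give the range of the median when any 1 cell was left out and the dashed line the median of all genes, 0.21. The mitosis (3.90) and S phase (2.61) lists have the highest medians and also the widest ranges (2.10 to 5.42 and 1.05 to 3.92).

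Over the whole profile the cells did not group by response type. Spearman correlations of normalized counts across genes had a median of 0.611 among S-type cells (15 pairs), 0.649 among M-type cells (10 pairs) and 0.651 between S-type and M-type cells (30 pairs, 0.505 to 0.787). These pairs share cells and the genes are not independent. The nearest of the other 10 cells had the same type for 4 S-type cells of 6 and for 3 M-type cells of 5. J150_3 and J151_5 were farthest from all others, with 0.615 and 0.611 to their nearest cell J155_9. The M-type cells J172_23 and J173_25 came next, with 0.644 to J155_9 and 0.685 to J174_13. The closest pair was J153_6 and J154_8 at 0.794.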

How the data were processed

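The 22 cells were sequenced as stranded paired-end libraries from RNA amplified in 2 rounds, without molecular identifiers. The authors aligned reads to the mouse genome (STAR, HTSeq, GRCm38 and mm10 in the submitters' processing notes; versions and the strand setting not given in the sources used here) and deposited raw exonic counts per gene symbol; these counts were used as deposited. Median-of-ratios size factors came from 3670 genes read in all 22 cells. Genes read in 5 or more cells were compared. A level of 0 was set to a floor of 3 reads over the type, and genes with at most 3 reads in both types were given no ratio. Read intervals are exact binomial at 95% and cover counting error only. Alternatives were other scalings (TMM, edgeR 4.0.16, R 4.3.3), thinning (seed 20240), filters, a pseudocount of 1, and left-out cells. Python 3.11.15, NumPy 2.4.6, pandas 2.3.3 and SciPy 1.17.1 were used, and the scripts were tested on simulated data. The columns of all 22 cells matched their labels.

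Genes named were, per direction, the 10 separated genes with the widest gap, the 5 with the largest ratio at a mean level of at least 1000, the 3 largest ratios at a level of at least 10, and of each list its separated members and the 2 with most reads. Other genes named were chosen after their values were seen. The comparison, its members and the gene lists were chosen with earlier results of these data known. No test was made between types, since neither pup nor dish is labelled for any cell, and cells are not replicates.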

Additional observations from a re-analysis of the deposited data

Results flagged for a closer look

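In each type the share of reads of each gene list and the normalized counts of the named separated genes were searched for a cell that stood apart from the others by Dixon's criterion at 95%. Of 124 groups of cells 17 held such a cell. The 1 in 20 rate of the criterion holds for independent, normally distributed values. It does not apply here, since the groups share cells, the values are skewed and the separated genes were named from these data. In S-type cells the share of reads reached 0.172% for clustered histone genes in J156_16 (0.0539% to 0.0864% in the other cells), 0.0949% for endothelial and 0.0213% for microglial markers in J150_3, 0.966% for mural and fibroblast markers in J155_9 (0.0567% to 0.234%), and 0.212% for neuron markers in J151_5 (0.00586% to 0.0828%). Most of this neuron share came from the single gene Stmn2. In M-type cells the share of calcium sensors, kinases and calcineurin-NFAT genes was 0.932% in J173_25 against 0.459% to 0.524%, and that of sex-linked genes was 0.117% in J175_18.

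Among separated genes, J151_5 stood above the other S-type cells for Neu3 (1732 normalized counts), Atp10a (2271), Ddit3 (284), Cep250 (1323) and Gnptg (5263). The log2 ratios without this cell were 3.31, 3.93, 2.55, 3.75 and 2.11. Among M-type cells, J173_25 stood above the rest for Med7 (10113), Las1l (1929.8), Luc7l3 (5626) and Atp10a (86.8), and J172_23 for Tug1 (2775 against 407 to 643). Without these cells the log2 ratios of Med7, Las1l, Luc7l3 and Tug1 were -2.06, -1.05, -1.20 and -2.06.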

How the results depend on the processing

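Over 23 settings, 2354 of 2383 values for 104 named genes moved by less than the spread between cells, 25 moved further and 4 reversed. A reversal was counted only for ratios of at least 4-fold. Smaller ratios that changed sign within the spread, as for Calm2, are among the 2354. Rrm2 (-1.57), Top2a (-0.22) and Slc24a5 (-1.11) reversed without J150_3 and J151_5, as did the mitosis median (-0.22), and Slc24a5 reversed with the median over cells (-0.37). The count of genes past 4-fold towards M-type was 1390 without the filter and 422 at a level of at least 50, and towards S-type 934 at that level. Separated towards S-type were 0.292% of genes, 0.158% under TMM, 1.44% without J150_3 and J151_5, 0.930% without J153_6 and J174_13, and 0.407% to 0.711% with 1 cell left out. Towards M-type these were 0.213%, and in the last 3 settings 0.643%, 0.626% and 0.356% to 0.558%. Fewer cells have fewer comparisons to pass. TMM moved the median of all genes from 0.21 to 0.05 and the S-type share of genes past 4-fold from 65.5% to 60.7%, and this share was 55.9% without J150_3 and J151_5. This spread was wide (3.98 for the mitosis median), so that values of genes and lists within it could still move far. Medians counted as within it ran from 0.40 to 3.92 for S phase and from -0.08 to 1.59 for calcium extrusion. Those of potassium channels ran from -0.55 to 1.05. Of 35 lists 31 kept their medians within the spread. The others, besides mitosis, were ER calcium release (-0.072 with the median over cells), endothelial markers (5.60 at a level of at least 50) and microglial markers (-0.42 for mean log2 values, 0.80 at a level of at least 50, -1.78 without J153_6 and J174_13, and -1.92 to 0.046 with 1 cell left out). With at least 5 reads required, the median genes per cell were 9963.5 in S-type and 10061 in M-type. The cause of these moves was not tested. No paired analysis was possible because replicate numbers follow accession order and carry no pairing, and no test was made. Low genes rest on few reads, and depth differed between the types without overlap.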

Other observations

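The genes with the largest ratios mostly came from 1 or a few cells. Spon2, which encodes a secreted matrix protein, held 2620 and 2119 normalized counts in J150_3 and J151_5 and 0 in the other 4 S-type cells. Cyp26b1, which degrades retinoic acid, held 2570 in J156_16. Parpbp, which acts in DNA repair, held 4978 in J150_3 and had no read in M-type cells. In M-type, Capsl (6387), the potassium channel gene Kcnj16 (1536) and 1700064M15Rik (863) were each highest in J173_25.

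After their separated members had been seen, the families of Med7 and Med14 and of Tmed10 were examined. The 30 Mediator subunits had a median log2 ratio of 0.11, with 15 higher in S-type and 15 in M-type. Past 4-fold were 4 and 2 of them, near the 13.9% and 7.31% of all genes. Their separated members were Med7 and Med14. The 9 Tmed genes, cargo receptors of early secretion, had a median of -0.06 with 4 higher in S-type and 5 in M-type.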
